A study of Mus musculus with 12 samples.

Results

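A group of 10 immediate early genes were followed in the RPE of WT and rd6 mice: *Fos*, *Fosb*, *Jun*, *Junb*, *Atf3*, *Egr1*, *Nr4a1*, *Ier2*, *Zfp36* and *Dusp1*. They were taken by gene symbol, as 10 of the 28591 genes of the table, and the rule used none of their values, although results of these data were known when the group was proposed. The study profiled RPE from 1-mo-old WT mice (C57BL/6J) and rd6 mice, which carry the rd6 mutation on both alleles of *Mfrp* (Mfrp rd6/rd6) in the germline, so that every cell of the eye carries it. Each group had 6 libraries, and each library held the RPE of both eyes of a sample after the anterior segment and the neural retina had been taken out of the eyecup. The labels name no treatment. *Mfrp* itself ranged from 30132 to 45442 normalized counts in WT and from 20442 to 29732 in rd6, a log2 fold change of -0.63 ± 0.11 (SE, limma adjusted p = 0.00126), so that its level differed between the labels without overlap of the libraries.

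Immediate early genes are transcribed within minutes of a stimulus from factors that already sit in the cell, without prior protein synthesis, and their mRNAs are short-lived. Fos and Jun proteins pair as the transcription factor AP-1 and ATF3 is a stress-induced partner, while EGR1 and NR4A1 are DNA-binding factors of other families. *Zfp36* and *Dusp1* act against the same signals, *Zfp36* by binding AU-rich elements in mRNA 3′ UTRs and *Dusp1* by removing phosphate from MAP kinases. Growth factors, light, injury and handling of tissue are all known to induce these genes.

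The AU-rich elements can be seen in the transcripts of the 10 genes. The heptamer UAUUUAU, the core that ZFP36 proteins bind, occurred in the 3′ UTR of 6 of the 10 genes (GENCODE M21 transcripts), against 26.1% of the 20737 genes that have a 3′ UTR. The shorter AUUUA occurred in 9 of 10, against 62.7%, and *Ier2* was the exception. *Dusp1* had 4 AUUUA pentamers in 690 bases and *Zfp36* had 3 in 774. The first site of each gene that holds the heptamer is shown within 27 bases, 5′ to 3′, with the heptamer in capitals and its first base counted from the start of the 3′ UTR.
Fos, base 656 of the 3′ UTR: guuuucaauuUAUUUAUuaagauggau
Fosb, base 1498 of the 3′ UTR: cacccccagcUAUUUAUcccuuuccug
Jun, base 1171 of the 3′ UTR: ugcuugugcaUAUUUAUaauagcguuc
Atf3, base 1127 of the 3′ UTR: aaauauuacuUAUUUAUcccaguauuc
Zfp36, base 575 of the 3′ UTR: gugggcccuuUAUUUAUgacgacuuua
Dusp1, base 104 of the 3′ UTR: agcugguccuUAUUUAUuuaacacccc
These matches are a description of the sequence, and binding was not measured.

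The stretch of 150 bases before the RefSeq start (GRCm38.p6) is shown for 5 genes, *Fos*, *Dusp1* and *Nr4a1*, which varied closely together among libraries, *Zfp36*, which holds a CArG box, and *Atf3*, which was called between the genotypes, 5′ to 3′ on the gene's strand, with motif letters in capitals. The motifs were the cyclic AMP response element TGACGTCA, its shorter core TGACG, the EGR sites GCGGGGGCG and GCGTGGGCG, the CArG box that serum response factor binds, and TATAAA in the last 50 bases. All except TATAAA were searched on both strands, and every full element also counts as a core.
Fos, chr12:85473740-85473889, plus strand: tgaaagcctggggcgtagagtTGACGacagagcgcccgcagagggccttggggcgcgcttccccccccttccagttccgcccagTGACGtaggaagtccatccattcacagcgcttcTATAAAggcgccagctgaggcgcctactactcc
Dusp1, chr17:26508473-26508622, minus strand: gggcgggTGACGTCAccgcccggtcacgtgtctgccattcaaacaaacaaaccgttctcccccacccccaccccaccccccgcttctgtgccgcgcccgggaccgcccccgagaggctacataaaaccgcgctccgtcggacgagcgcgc
Nr4a1, chr15:101266696-101266845, plus strand: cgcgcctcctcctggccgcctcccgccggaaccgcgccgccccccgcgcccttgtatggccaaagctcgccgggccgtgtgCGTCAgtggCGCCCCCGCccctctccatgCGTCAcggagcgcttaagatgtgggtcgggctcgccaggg
Zfp36, chr7:28379229-28379378, minus strand: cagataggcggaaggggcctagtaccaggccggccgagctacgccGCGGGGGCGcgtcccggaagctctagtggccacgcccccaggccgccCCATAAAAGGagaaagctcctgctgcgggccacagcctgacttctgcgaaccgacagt
Atf3, chr1:191183334-191183483, minus strand: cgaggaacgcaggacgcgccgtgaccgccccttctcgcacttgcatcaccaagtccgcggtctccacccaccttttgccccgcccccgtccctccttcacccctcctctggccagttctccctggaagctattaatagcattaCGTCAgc
Promoter windows were found for 8 of the 10 genes, *Egr1* and *Ier2* being the others. Within 250 bases before the start, the core was in 6 of 8 (17.8% of all 32851 windows), the EGR sites were in *Fosb*, *Nr4a1* and *Zfp36* (3.06% of windows), the full element was in *Dusp1* (1.55%), the CArG box in *Zfp36* (1.47%) and TATAAA in *Fos* (2.63%). The AP-1 site, TGACTCA or TGAGTCA, was in none of the 8 (4.46%), which says only that these letters are not in the window.

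The libraries held between 28907262 and 33152725 reads on genes, and 3 reads corresponded to between 2.71 and 3.32 normalized counts (the read count divided by the size factor of the library). All 10 genes passed the filter of a mean of 10 normalized counts, and the fewest reads of any gene in a library were 3, for *Fosb*. The test was limma on log2(normalized count + 1) over 17768 genes, called at an adjusted p (q) below 0.05. The 12 samples are the replicates, so that p-values measure the spread between these samples. Changes in bulk RNA cannot tell fewer or more cells of a type from less or more RNA per cell. 2 libraries stood apart as high in most of the 10 genes, WT replicate 4 and rd6 replicate 5. At the low end rd6 replicate 4 stood apart, and it was kept in the fit without the 2 high libraries. Results are given with both WT replicate 4 and rd6 replicate 5 and, as a choice made after seeing the data, without both. These 2 were picked for high levels of these same genes, and leaving them out narrows the spread by itself. The q values and overlaps without them are therefore a description.

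**Figure D1:**
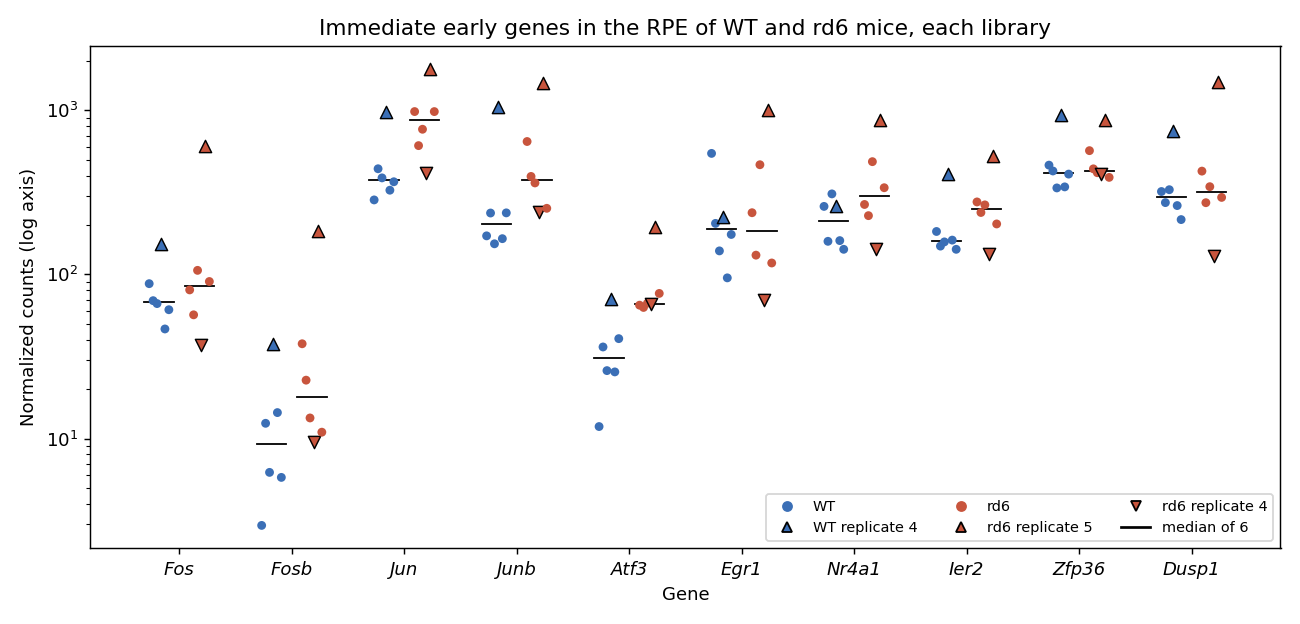
Normalized counts (log axis) of the 10 genes in each library, WT in blue and rd6 in red, with black bars for the median of 6. WT replicate 4 and rd6 replicate 5 are upward triangles and rd6 replicate 4 is a downward triangle, and rd6 replicate 5 is the highest rd6 library in 10 of 10 genes.

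*Atf3* was the only one of the 10 genes called between the genotypes, and it was higher in rd6. None was called lower. Over all genes tested, 11.4% were called higher and 11.6% lower. The log2 fold change was above 0 for all 10 genes, with a median of 0.55 beside 0.0049 for all genes tested. Without rd6 replicate 5 it was above 0 for 6 of 10, with a median of 0.30, and without both rd6 replicate 5 and WT replicate 4 for 8 of 10, with a median of 0.45. The unadjusted limma p was below 0.05 for *Atf3* and *Jun*, and the share of all genes below that limit was not counted. Tests on the recovered reads with edgeR and DESeq2 each called 1 gene as well, *Atf3*. In 0 of the 10 genes were all rd6 libraries above all WT libraries, beside 5.77% of all genes. Without WT replicate 4 and rd6 replicate 5, 3 of the 10 genes were called higher, *Atf3*, *Jun* and *Junb*, beside 12.7% of all genes, and none was called lower. The count was also 3 without WT replicate 4 alone and 2 without rd6 replicate 4, but the shares of all genes in those fits were not counted.

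Of the Jun family, *Jun* (chr4:95049034-95052222, minus strand, GRCm38) encodes the main DNA-binding partner in AP-1. Its normalized counts ran from 284 to 968 in WT, with a median of 377, and from 416 to 1787 in rd6, with a median of 873. The WT libraries other than replicate 4 reached at most 439.7, and 5 of 6 rd6 libraries lay above that, with rd6 replicate 4 at 416. *Jun* had a log2 fold change of 0.98 ± 0.34 (SE), a 1.97-fold higher level, which missed the threshold (limma q = 0.0568, DESeq2 q = 0.0512). The change was 1.00 ± 0.22 with q = 0.00626 when WT replicate 4 and rd6 replicate 5 were left out. Over 22 alternatives q ran from 0.00626 to 0.166 and passed the threshold in 3. An antisense gene, *Junos*, overlaps *Jun*. Genes were quantified with standard parameters of Rsubread, which by default do not use the strand, so counts may be affected where genes overlap.

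*Junb* (chr8:84974484-84978718, minus strand), a Jun protein that also restrains c-Jun, was the most uneven of the Jun genes in WT. WT replicate 4 had 1043 normalized counts, while the other WT libraries had from 154 to 237. The rd6 libraries ran from 239.6 to 1461, with a median of 378. With all 12 libraries the log2 fold change was 0.83 ± 0.52 (q = 0.277). It was 0.49 without rd6 replicate 5 alone (q = 0.494) and 1.24 without WT replicate 4 alone (q = 0.0372). Without WT replicate 4 and rd6 replicate 5 the 2 genotypes no longer overlapped in *Junb* and in *Atf3*, with rd6 above WT. These were 2 of the 10 genes, beside 9.09% of all genes. The change of *Junb* was then 0.90 ± 0.25 (q = 0.0210). Leaving out the highest WT library lowers the WT range by itself, so the lack of overlap is a description. *Prdx2*, on the other strand, overlaps *Junb*.

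*Atf3* (chr1:191170296-191218039, minus strand), a stress-induced repressor and activator of the ATF family, was at 11.8, 36.1, 25.9, 70.9, 25.5 and 40.6 in WT (normalized counts, replicate 1 first). In rd6 replicates 1 to 6 it had 64.9, 62.9, 66.7, 65.9, 195 and 76.5. The groups overlapped through WT replicate 4 alone, and 5 of the 6 rd6 libraries lay within the narrow range from 62.9 to 76.5. Its log2 fold change was 1.36 ± 0.39, a 2.57-fold higher level in rd6 (limma q = 0.0232, edgeR q = 0.0342, DESeq2 q = 0.00620). It passed the threshold in 21 of 22 alternatives, with q from 0.00459 to 0.0527. It was 1.34 ± 0.28 without WT replicate 4 and rd6 replicate 5. rd6 replicate 4, the lowest rd6 library for 8 of the 10 genes, was not low for *Atf3*. The small RNA gene *Gm24748* overlaps it on the other strand.

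The Fos genes spread widely within a genotype. *Fos* (chr12:85473890-85477273, plus strand), whose protein binds DNA only in a pair with Jun proteins, had from 46.5 to 153 normalized counts in WT, with a median of 67.8. In rd6 it had 80.4, 56.7, 106, 37.2, 603 and 90.5 in replicates 1 to 6. rd6 replicate 5 was 7.50 times the median of the other rd6 libraries, and these others lay within the WT range except for replicate 4 at 37.2. For *Fos* the log2 fold change was 0.41 ± 0.54 (95% interval from -0.76 to 1.59, q = 0.624), and edgeR gave 1.02 with q = 0.277, while DESeq2 gave 1.01 with no adjusted p. Without rd6 replicate 5 it was -0.10, and without both libraries it was 0.10 ± 0.27 (q = 0.814).

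*Fosb* (chr7:19302696-19310051, minus strand), the relative whose stable splice product accumulates under repeated stimulation, was the lowest of the 10 genes. It had from 2.96 to 37.9 normalized counts in WT, with a median of 9.30, and from 9.55 to 183 in rd6, with a median of 18.0. The WT libraries other than replicate 4 reached at most 14.4, and 3 of the 6 rd6 libraries lay below that. For *Fosb* the log2 fold change was 1.27 ± 0.71 (95% interval from -0.27 to 2.81, q = 0.226), and 1.07 ± 0.46 without both libraries (q = 0.109), but 0.70 without rd6 replicate 5 alone.

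*Egr1* (chr18:34859823-34864984, plus strand), a zinc finger factor of growth factor response, followed another order in WT. Its highest WT library was replicate 1, with 545 normalized counts, and the others had from 95.2 to 224. In rd6 the values ran from 69.7 in replicate 4 to 1001 in replicate 5, with a median of 184 beside 190 in WT. The log2 fold change was 0.17 ± 0.60 (95% interval from -1.12 to 1.46, q = 0.863), so the interval spans large changes in either direction. It was below 0 without WT replicate 5 (-0.035), rd6 replicate 3 (-0.040) or rd6 replicate 5 (-0.26), and -0.22 without both libraries. It was higher with edgeR (0.56) and DESeq2 (0.55), without WT replicate 1 (0.47) and without rd6 replicate 4 (0.50).

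*Nr4a1* (chr15:101254269-101274795, plus strand), an orphan nuclear receptor, ranged from 142 to 309 in WT, with a median of 209.9, and from 143 to 869 in rd6, with a median of 302. In WT its highest library was replicate 3, and replicate 4 had 261. Its change on the log2 scale was 0.67 ± 0.37 (q = 0.220), and 0.39 without rd6 replicate 5. It was higher with edgeR (0.86, q = 0.138), with DESeq2 (0.85, q = 0.0715) and in limma without rd6 replicate 4 (0.91, q = 0.0731). *Ier2* (chr8:84661331-84662852, minus strand), a small nuclear protein of the growth factor response, was even in WT outside replicate 4. Its 5 other WT libraries had from 142 to 182 normalized counts and replicate 4 had 411. The rd6 libraries had from 134 to 526, and 4 of the 6 lay between 203 and 276. Its change was 0.44 ± 0.32 with all libraries (q = 0.354) and 0.45 ± 0.18 without both (q = 0.0869), but 0.22 without rd6 replicate 5 alone and 0.66 without WT replicate 4 alone.

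Of the genes that act against the signal, neither showed a difference past the threshold. *Zfp36* (chr7:28376784-28380253, minus strand) had medians of 417 in WT and 428 in rd6, with ranges from 336 to 934 and from 389.7 to 866. The log2 fold change was 0.12 ± 0.26 (95% interval from -0.43 to 0.67, q = 0.770), and -0.042 without rd6 replicate 5. *Dusp1* (chr17:26505590-26562128, minus strand) had medians of 297 and 318. Its range was from 216 to 748 in WT and from 129 in rd6 replicate 4 to 1490 in rd6 replicate 5. Its log2 fold change was 0.15 ± 0.48 (95% interval from -0.88 to 1.18, q = 0.853), and -0.26 without rd6 replicate 5. It was 0.47 with edgeR and 0.46 with DESeq2, 0.39 without WT replicate 4 and 0.45 without rd6 replicate 4. *Gm44710* overlaps *Zfp36* and *Ergic1* overlaps *Dusp1* on the opposite strand, so their counts may be affected as well.

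**Figure D2:**
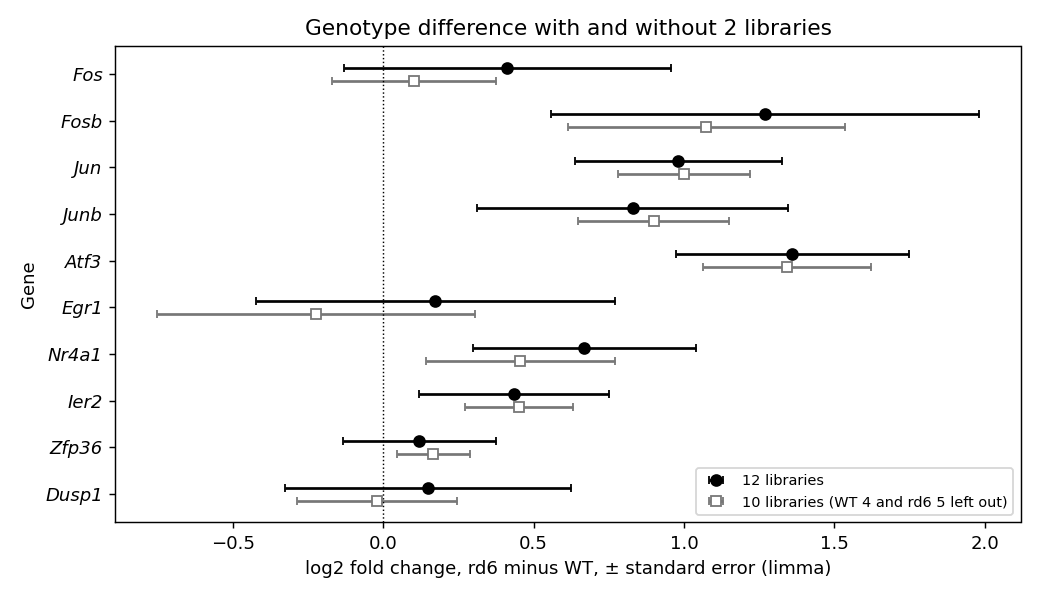
Log2 fold change of rd6 minus WT with its standard error (limma) for each gene, with all 12 libraries (filled) and without WT replicate 4 and rd6 replicate 5 (open). *Atf3*, *Jun* and *Junb* stay near 1.34, 1.00 and 0.90 with narrower bars, while *Egr1* and *Dusp1* move to -0.22 and -0.02. Both libraries were left out after seeing these values, so the narrower bars are a description.

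Per kilobase of exon, the WT means placed *Jun*, *Junb*, *Zfp36* and *Ier2* highest, at 145, 145, 140 and 132 normalized counts per kb. *Dusp1* followed with 108, then *Nr4a1* with 61.3, *Egr1* with 51.4, *Fos* with 34.3, *Atf3* with 16.3 and *Fosb* with 2.13. Spreads were wide, with an SD of 79.6 per kb for *Jun* and 152 for *Junb*, so that the 4 highest do not differ beyond their spread. The width and part of the order rested on WT replicate 4. Without it *Zfp36* had a WT mean of 114 ± 15.8 per kb (SD, n = 5), *Jun* 113 ± 18.6, *Ier2* 104 ± 10.1, *Dusp1* 84.5 ± 13.8 and *Junb* 83.7 ± 17.7. *Fos* (28.1 ± 6.34) and *Atf3* (12.99 ± 5.17) then differed by more than their summed SDs, but by less with all 6 libraries, where the SDs were 16.2 and 9.36.

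Over 6 libraries, the spread within a genotype was above the median of all genes for each of the 10 genes in both genotypes. The SD of log2(normalized count + 1) among the 6 libraries had a median over the 10 genes of 0.62 in WT and 0.94 in rd6, while the median over all genes tested was 0.19 and 0.18. For *Fos* in rd6 the SD was 1.37, larger than that of 97.6% of all genes, and for *Fosb* it was 1.55, larger than 98.0%. Of the 10 genes, 7 had a larger SD in rd6 than in WT, as had 45.2% of all genes. The medians over the 10 genes were 0.31 and 0.58 without WT replicate 4 and rd6 replicate 5, and 8 of 10 had the larger SD in rd6. For some genes the spread rested on the library left out, as the SD of *Atf3* in rd6 went from 0.63 to 0.11 and that of *Ier2* in WT from 0.57 to 0.14. No test was made of this difference in spread.

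**Figure D3:**
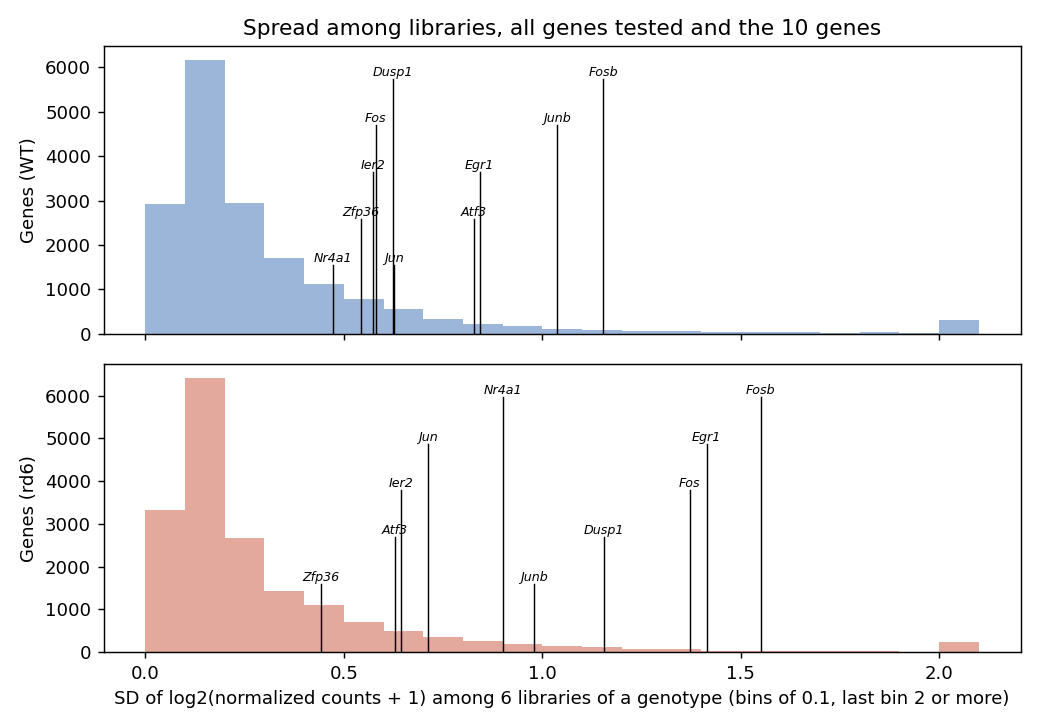
Histograms of the SD of log2(normalized count + 1) among the 6 WT libraries (top) and the 6 rd6 libraries (bottom) over all genes tested, with vertical lines at the 10 genes. All 10 lines lie to the right of the medians of all genes, 0.19 and 0.18.

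A few libraries were high or low in most of the 10 genes. rd6 replicate 5 was the highest rd6 library for 10 of 10 genes, beside 22.7% of all genes. Its mean deviation from the genotype mean was 1.70 on the log2 scale, which is 3.24-fold. It reached 13.7 times the median of the other rd6 libraries for *Fosb*, 7.65 times for *Egr1*, 5.06 times for *Dusp1* and 2.08 times for *Zfp36*. WT replicate 4 was the highest WT library for 8 of 10 genes, all except *Egr1* and *Nr4a1*, beside 25.3% of all genes, with a mean deviation of 1.12. rd6 replicate 4 was the lowest rd6 library for 8 of 10, beside 18.2%, with a mean deviation of -1.04. The genotype means include the library itself, and the other libraries had mean deviations from -0.38 to 0.11.

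**Figure D4:**
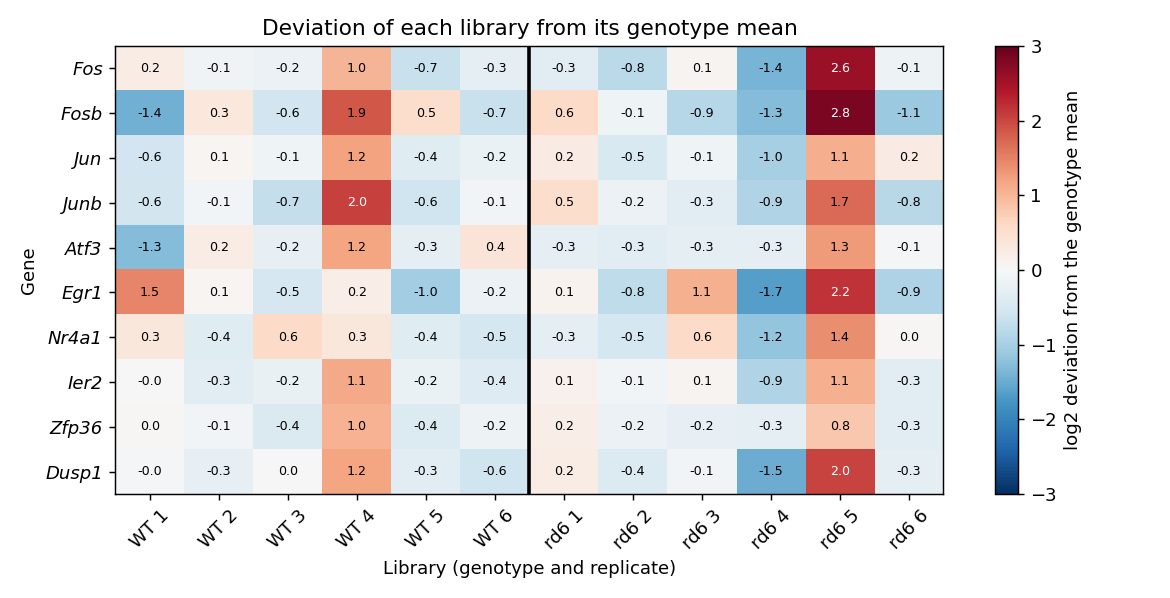
Deviation of log2(normalized count + 1) from the mean of the library's genotype, for 10 genes (rows) and 12 libraries (columns, WT left of the line). The columns of WT replicate 4 and rd6 replicate 5 are above 0 in all 10 genes, and the column of rd6 replicate 4 is below 0 in all 10.

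With the genotype means taken out, all 45 pairs of the 10 genes had a positive correlation over the 12 libraries, with a median r of 0.80 and a range from 0.22 to 0.96. The points share library, depth and dissection, and these correlations are given as a description. Without WT replicate 4 and rd6 replicate 5, 34 of 45 pairs were positive, with a median of 0.41 and a range from -0.45 to 0.93. A set of *Fos*, *Egr1*, *Nr4a1*, *Ier2* and *Dusp1* still went together over these 10 libraries, *Fos* with *Nr4a1* at 0.83, *Egr1* at 0.82, *Dusp1* at 0.79 and *Ier2* at 0.72. *Atf3* and *Fosb* did not go with *Fos* there, at -0.20 and -0.14. These groups of genes were picked after the values were seen.

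In a limma fit with genotype and the *Fos* level of each library as terms, 7 of the 9 other genes rose with *Fos* at q below 0.05, beside 0.951% of all genes. The slopes ran from 0.37 log2 units per log2 unit of *Fos* for *Zfp36* (q = 0.0479) to 0.91 for *Egr1* (q = 0.0365), and *Dusp1* had 0.84 (q = 0.00602). *Fosb* (q = 0.0636) and *Atf3* (q = 0.115) missed the threshold. The fit uses the same 12 libraries as the correlations, with the same shared library, depth and dissection, and its count rested on single libraries. It was 0 without rd6 replicate 5, 1 without rd6 replicate 2 or rd6 replicate 4, 3 without WT replicate 6 and 4 without WT replicate 2 or WT replicate 5. Without both WT replicate 4 and rd6 replicate 5, 0 of 9 members and 0 genes of the whole table passed limma's threshold.

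Outside the 10 genes themselves, the genes most like *Fos* over the 12 libraries, with genotype taken out and genes under a mean level of 100 passed over, were *Kcnk5* (partial r = 0.94), *Nptxr* (0.94), *Chd5* (0.92), *Zcchc18* (0.91), *Ncs1* (0.90), *Sik1* (0.90), *Tfap2b* (0.89), *Gpr153* (0.89), *Kcnip4* (0.88) and *Magi1* (0.87). *Sik1*, a kinase known as a target of cyclic AMP signalling, had 1145 normalized counts in rd6 replicate 5 and at most 480 in the other rd6 libraries. *Kcnk5*, a potassium channel gene, had 241 there and at most 172 in the others. Without WT replicate 4 and rd6 replicate 5, r was 0.89 for *Kcnk5* and 0.83 for *Sik1* but 0.36 for *Ncs1*.

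WT replicate 4 and rd6 replicate 5, which were high in most of the immediate early genes, were also high in markers of ocular surface epithelium. The summed level of 15 genes of ocular surface epithelium (a list added after seeing the data) was 273301 normalized counts in WT replicate 4 and from 25.9 to 19659 in the other WT libraries. In rd6 replicate 5 it was 167368, and in the other rd6 libraries it ran from 858 in replicate 4 to 94288 in replicate 1. All 15 genes were highest among WT libraries in replicate 4, and 12 of 15 were highest among rd6 libraries in replicate 5, while 0 of 15 were called between the genotypes. rd6 replicate 5 also had the highest rod photoreceptor sum of the rd6 libraries, 105462 normalized counts over 19 genes, beside 50944 to 59719 in the other 5. In WT the rod sum ran from 79234 to 123592, with 107309 in replicate 4. The part of these cells in the levels of the immediate early genes was not tested.

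Microglia or macrophage genes moved with the genotype, as 19 of 20 were called higher in rd6 and 0 lower. Their sum ran from 17252 to 23101 in WT and from 31638 to 52558 in rd6, with the highest value in rd6 replicate 4, the library with the lowest *Fos*, *Jun* and *Dusp1* of its group. *Csf1r*, the receptor that these cells depend on and the single gene of the list not called, made up most of the WT sum, with a mean of 17256 normalized counts in WT and 18740 in rd6 (q = 0.385). The median log2 fold change of the list was 2.74. Of all genes, 11.4% were called higher and 11.6% lower. Endothelial genes were called higher in 11 of 15, with sums from 10916 to 20877 in WT and from 16473 to 38828 in rd6. Stroma and mural cell genes were called in 1 of 14 in each direction, and blood genes higher in 1 of 8, which lie near or under the shares of all genes. Rod genes were called lower in 6 of 19 and RPE genes in 5 of 12, with RPE sums from 1525410 to 2298740 in WT and from 1442610 to 1947520 in rd6. The lowest RPE sum of each genotype was in WT replicate 4 and rd6 replicate 5. The RPE sum of rd6 replicate 1 was close to that of rd6 replicate 5, at 1462450 beside 1442610. In the 10 immediate early genes rd6 replicate 1 had a mean deviation of 0.11. Leaving out WT replicate 4 and rd6 replicate 5 changed the calls to 13 higher for endothelium, 15 lower for rods, 8 lower for RPE, 3 higher and 1 lower for stroma and 2 higher for blood. In that fit 12.7% of all genes were called higher, and the share called lower was not counted. The part of these cell types in the higher *Atf3* of rd6 was not tested.

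**Figure D5:**
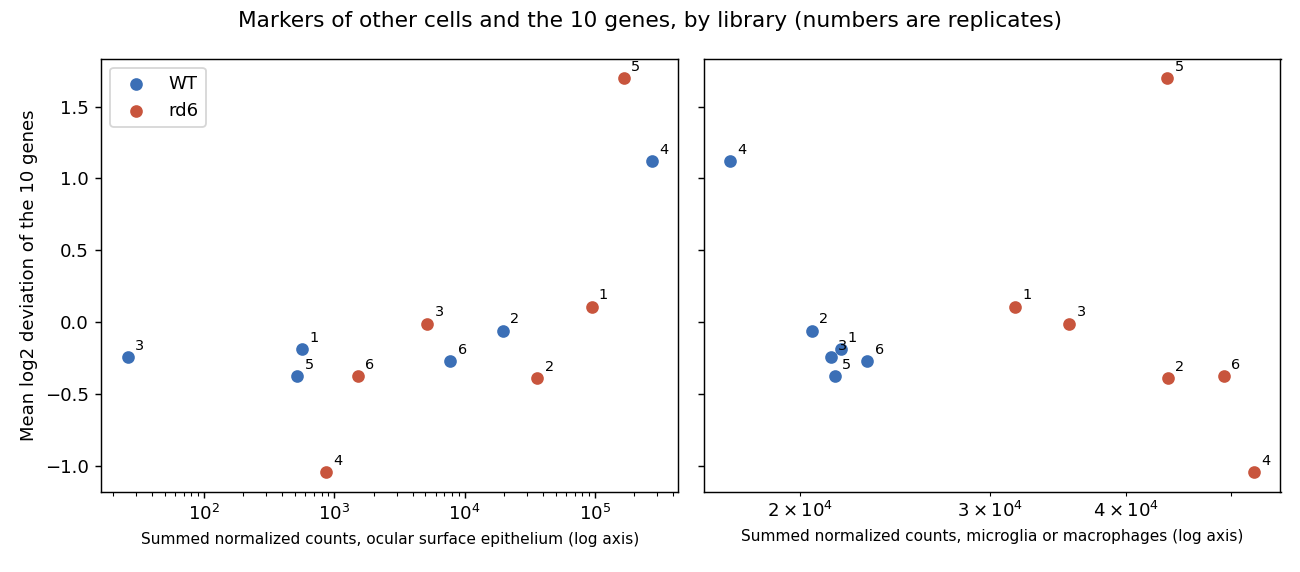
Mean log2 deviation of the 10 genes in each library against the summed normalized counts (log axes) of ocular surface epithelium genes (left) and of microglia or macrophage genes (right), with WT in blue, rd6 in red and replicate numbers beside the points. WT replicate 4 and rd6 replicate 5 hold the highest epithelium sums, 273301 and 167368, and rd6 replicate 4 holds the highest microglia sum.

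Other genes of the pathway were counted in lists, beside the 11.4% of all genes called higher and the 11.6% called lower with all 12 libraries. Without WT replicate 4 and rd6 replicate 5, 12.7% of all genes were called higher, and the share called lower was not counted. Of 14 AP-1 and ATF relatives tested, 2 were called higher and 2 lower, near those shares (3 and 2 without WT replicate 4 and rd6 replicate 5). *Jund*, the Jun gene that is expressed at rest, rose from 1342 ± 412 to 2908 ± 559 normalized counts (mean ± SD, n = 6 per group), a log2 fold change of 1.14 ± 0.17 (limma). *Batf*, an AP-1 factor of immune cells, rose by 1.40 on that scale, while *Mafg* fell by 0.41 and *Atf2* fell by 0.20. Of 37 other immediate early genes, 8 were called higher and 4 lower, and without WT replicate 4 and rd6 replicate 5 these counts were 11 and 4. The genes named next in each direction had the smallest adjusted p. Leading the rises were *Cebpd*, an acute phase transcription factor, from 451 to 1242 normalized counts, *Socs3*, the feedback inhibitor of cytokine receptors, from 88.7 to 330.1, and *Gadd45g*, a stress-response gene, from 218 to 466. Leading the falls were *Errfi1*, an inhibitor of EGF receptor signalling, with a log2 fold change of -0.56, *Tnfaip3*, an inhibitor of NF-κB signalling, with -0.61, and *Sgk1*, a kinase induced by glucocorticoids, with -0.39.

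Among relatives of *Dusp1*, of 9 dual-specificity phosphatases tested, 3 were called lower and 1 higher (4 and 1 without WT replicate 4 and rd6 replicate 5). *Dusp6*, the phosphatase of ERK in the cytoplasm, fell from 14110 ± 2536 to 6407 ± 799 normalized counts, and *Dusp4* fell from 14363 ± 2544 to 8544 ± 1067. *Dusp7* fell by 0.30 on the log2 scale and *Dusp14* rose by 0.40. Of 30 genes that carry MAP kinase, SRF or CREB signals, 5 were called higher and 5 lower, beside 11.4% and 11.6% of all genes. *Mapkapk2* (0.50), *Map3k1* (0.77) and *Rps6ka1* (0.52) led the rises by adjusted p, with log2 fold changes in parentheses, and *Map3k5* (-0.38), *Creb1* (-0.27) and *Mapk8* (-0.23) led the falls.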

How the data were processed

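Total RNA of RPE was sequenced from 6 WT and 6 rd6 samples, grouped by the genotype in the labels. The authors demultiplexed with bcl2fastq, checked reads with FastQC, aligned them to mm10, quantified genes with Rsubread and normalized with DESeq2, with versions not given in the sources used here. The deposited signal per gene and library is the read count divided by the size factor of the library. The authors' own comparison columns (mean, log2 fold change, standard error, Wald statistic, p-value and adjusted p-value) were not used. All deposited values were whole multiples of 1 read (tolerance 0.001), so reads were recovered. After 5 repeated entries were dropped, 28591 genes remained.

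limma 3.58.1 (R 4.3.3, mean-variance trend) was run on log2(normalized count + 1) over the 17768 genes whose mean reached 10, with Benjamini-Hochberg adjustment over all of them. Fold changes on that scale understate changes of low genes. edgeR 4.0.16 and DESeq2 1.42.0 on recovered reads, pseudocounts, rescaling, filters, a replicate block and leaving out each library were alternatives. The limma and edgeR fits were tested on simulated counts with the same spread setting for every gene and no uneven library. That setting does not cover libraries such as WT replicate 4 and rd6 replicate 5. The members and lists were chosen with earlier results of these data known. The ocular surface list and the fit without WT replicate 4 and rd6 replicate 5 were added after seeing the data. Genes named besides the 10 members are at most the 3 with the smallest adjusted p in each direction of each list, the 10 most correlated with *Fos*, and *Mfrp*; overlapping genes are named from GENCODE M21, and *Csf1r* was singled out after its values were seen. Promoters are from RefSeq (GRCm38.p6). Read depths and floors of 3 reads cover counting error only. All 66 pairs of libraries differed beyond counting error (lowest mean chi-square 9.25 per gene).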

Additional observations from a re-analysis of the deposited data

Results flagged for a closer look

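On the scale of log2(normalized count + 1), in 7 of the 20 groups of 6 libraries (10 genes in 2 genotypes), the extreme library lay farther from its nearest neighbour, as a share of the range of the group, than Dixon's critical value for 6 samples at the 95% level. Chance gives this in about 1 in 20 groups, and the genes of a library are not independent. In WT replicate 4 these were *Jun* with 968 normalized counts, *Junb* with 1043, *Ier2* with 411, *Zfp36* with 934 and *Dusp1* with 748. In rd6 replicate 5 they were *Fos* with 603 and *Atf3* with 195. All 7 are the highest value of their group, and the numbers printed are the normalized counts. The count depends on the scale. In a check added after seeing the data, on the normalized counts themselves 14 of the 20 groups passed the same limit, 7 through rd6 replicate 5, 6 through WT replicate 4 and 1 through WT replicate 1 (*Egr1*). *Fosb* passed in both genotypes there, and *Junb*, *Ier2*, *Zfp36* and *Dusp1* passed in rd6 as well as in WT.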

How the results depend on the processing

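With each of the 12 libraries left out in turn, the count of members called higher ran from 1 to 3 and the count called lower was 0 throughout. The shares of all genes in those fits were not counted. The count of members that followed *Fos* ran from 0 to 9. Log2 fold changes ran from -0.26 to 0.45 for *Dusp1*, from -0.26 to 0.50 for *Egr1*, from -0.10 to 0.69 for *Fos* and from -0.042 to 0.33 for *Zfp36*, and these 4 genes changed sign in at least 1 of those fits. Without both WT replicate 4 and rd6 replicate 5, 3 members were called higher, 0 followed *Fos*, *Egr1* was at -0.22 and *Dusp1* at -0.020. With *Egr1* in place of *Fos* as the covariate, 0 members passed. With the replicate block, 0 members were called higher (*Atf3* at 1.36, q = 0.0527) and 0 followed *Fos*. The replicate numbers come from the labels and do not pair the samples: same-numbered WT and rd6 libraries had a mean r of -0.25 (from -0.74 to 0.31), and 0 of 6 WT libraries correlated best with their own number. The cause of these changes was not tested, apart from the fewer libraries in the fits that leave some out. TMM and upper-quartile rescaling moved the median log2 fold change of all genes by 0.04 or less. Depth limits *Fosb* most, with 3 reads in its lowest library.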

Other observations

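Genes of other stress pathways were counted beside the 11.4% of all genes called higher and the 11.6% called lower with all 12 libraries. Without WT replicate 4 and rd6 replicate 5, 12.7% of all genes were called higher, and the share called lower was not counted. Of 23 genes of the integrated stress response, the pathway that slows translation under stress, 5 were called lower and 0 higher by limma (5 and 1 without WT replicate 4 and rd6 replicate 5), and the median log2 fold change of the list was 0.075. *Psat1*, a serine synthesis enzyme, fell from 3441 ± 147 to 2465 ± 223 normalized counts (mean ± SD, n = 6 per group), *Vegfa*, the vascular growth factor of the RPE, fell from 17416 ± 4185 to 8943 ± 1086, and *Eif2ak3*, the endoplasmic reticulum stress kinase PERK, fell from 1921 ± 177 to 1355 ± 126. Of 23 heat shock genes, 1 was called higher and 2 lower, under those shares (2 and 3 without the same libraries). *Hspb8*, a small chaperone, had a log2 fold change of 0.78, *Hspa4l* of -0.35 and *Dnajb4* of -0.14. Of 12 *Zfp36* relatives and mRNA decay genes, 2 were called lower, *Cnot6* (-0.36) and *Dcp1a* (-0.34), and 0 higher.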
